A study of Mus musculus with 6 samples.

Results

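Skeletal muscle of the developing mouse hand was followed through 34 genes chosen by name: 2 progenitor factors, 4 myogenic regulators, 18 genes of the sarcomere and of desmin filaments, 5 genes of creatine kinase and calcium handling, and 5 genes of the postsynaptic membrane. They are 34 of 34989 genes with a summed value, and all 34 passed the filter on low counts, which 16938 genes passed. RNA came from handpads, the paddle-like ends of the forelimb, of C57BL/6 embryos at stage E14.5, in 3 Grhl3 knockout (KO) and 3 wild-type (WT) samples. The labels give the KO genotype as Grhl3KO and the series names it Grhl3-/-, without saying which part of the gene was removed, and they do not say whether a sample was 1 embryo or a pool. The p-values thus reflect how far these 6 samples scatter, and part of that scatter may be technical. Grhl3 encodes a transcription factor of the surface ectoderm, and the title of the series is about the epithelium and periderm in digit separation.

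Limb muscle is built by cells that leave the somites, enter the limb bud and express Pax3 and later Pax7, the paired-box factors of muscle progenitors. The basic helix-loop-helix factors Myf5 and Myod1 commit these cells to muscle, Myog drives their differentiation and fusion, and Myf6 acts late. Young fibres first make embryonic and neonatal myosins and the cardiac form of actin, and their acetylcholine receptor carries the gamma subunit, which the epsilon subunit replaces after birth. Myogenic factors bind E-boxes, DNA words of the form CANNTG, and often CAGCTG. MEF2 factors bind AT-rich boxes, and serum response factor binds CArG boxes.

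Promoter windows of 6 of the genes are shown as background to the levels described here. They run from 250 bases before to 50 bases after the start given by RefSeq (build GRCm38.p6, the assembly also called mm10). Shown 5′ to 3′ on the gene's strand are Myog, the regulator with the highest level (chr1:134289754-134290053, plus strand), Mylpf, the most abundant of the 34 genes (chr7:127211358-127211657, plus strand), Chrnb1, the postsynaptic gene with the highest level (chr11:69795888-69796187, minus strand), Chrng and Chrna1, other subunits of the fetal receptor (chr1:87205561-87205860, plus strand, and chr2:73580289-73580588, minus strand), and Casq2, which had the smallest p-value (chr3:102086165-102086464, plus strand). Capitals mark E-boxes CANNTG and, in Casq2, also a MEF2 box.
Myog: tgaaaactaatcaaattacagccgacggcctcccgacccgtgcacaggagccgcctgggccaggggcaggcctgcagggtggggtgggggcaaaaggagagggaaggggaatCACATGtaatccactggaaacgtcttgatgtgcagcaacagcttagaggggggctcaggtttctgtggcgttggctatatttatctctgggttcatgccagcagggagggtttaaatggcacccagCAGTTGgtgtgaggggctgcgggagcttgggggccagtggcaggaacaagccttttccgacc
Mylpf: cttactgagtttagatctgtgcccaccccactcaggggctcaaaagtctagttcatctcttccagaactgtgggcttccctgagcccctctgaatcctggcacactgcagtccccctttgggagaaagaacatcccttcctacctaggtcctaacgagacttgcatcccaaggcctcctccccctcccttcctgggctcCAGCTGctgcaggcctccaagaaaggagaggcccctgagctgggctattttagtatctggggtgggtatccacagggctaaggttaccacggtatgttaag
Chrnb1: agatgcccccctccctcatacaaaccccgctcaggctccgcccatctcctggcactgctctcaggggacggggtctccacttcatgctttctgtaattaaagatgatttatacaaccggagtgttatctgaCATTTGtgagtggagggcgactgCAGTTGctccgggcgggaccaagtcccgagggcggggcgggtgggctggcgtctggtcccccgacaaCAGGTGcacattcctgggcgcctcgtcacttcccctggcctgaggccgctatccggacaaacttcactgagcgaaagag
Chrng: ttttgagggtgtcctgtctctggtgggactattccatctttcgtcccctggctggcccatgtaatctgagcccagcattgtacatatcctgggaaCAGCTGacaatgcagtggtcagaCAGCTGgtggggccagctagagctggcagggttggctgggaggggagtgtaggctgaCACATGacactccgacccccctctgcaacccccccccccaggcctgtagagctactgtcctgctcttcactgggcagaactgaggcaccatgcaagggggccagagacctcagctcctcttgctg
Chrna1: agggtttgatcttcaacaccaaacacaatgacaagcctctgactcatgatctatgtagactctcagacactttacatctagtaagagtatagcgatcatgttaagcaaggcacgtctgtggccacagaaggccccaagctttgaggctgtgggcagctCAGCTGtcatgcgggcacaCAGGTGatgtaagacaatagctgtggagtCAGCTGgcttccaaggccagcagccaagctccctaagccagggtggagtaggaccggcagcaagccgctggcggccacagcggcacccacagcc
Casq2: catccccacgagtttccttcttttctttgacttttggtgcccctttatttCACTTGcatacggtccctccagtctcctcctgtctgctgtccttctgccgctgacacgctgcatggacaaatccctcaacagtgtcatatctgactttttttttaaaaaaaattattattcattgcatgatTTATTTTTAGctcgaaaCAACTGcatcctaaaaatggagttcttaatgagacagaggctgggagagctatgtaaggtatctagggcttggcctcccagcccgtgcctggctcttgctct

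The Mylpf window holds a CAGCTG that begins 51 bases before the start. Chrng holds CAGCTG words beginning 155 and 132 bases before its start and Chrna1 holds them 92 and 44 bases before. Chrnb1 has E-boxes at 119, 96 and 29 bases before the start, none of them CAGCTG. Myog has E-boxes at 138 and 12 bases before the start, neither of them CAGCTG, and Casq2 has E-boxes at 200 and 52 bases and its MEF2 box at 69 bases before the start. Windows were found for 27 of the 34 genes, 29 windows in all. Searched on both strands, CANNTG stood in 25 of the 29 windows and in 72.3% of all 32851 windows of this length. CAGCTG, which is a form of CANNTG, stood in 12 of 29 and in 16.3% of all windows, the MEF2 box in 3 of 29 and in 3.19%, and the CArG box in 2 of 29 and in 1.63%. The MEF2 box was searched as YTAWWWWTAR and the CArG box as CCWWWWWWGG, where Y is C or T, W is A or T and R is A or G. The Myog window holds ctatatttat, which misses the MEF2 word by its last base and was not marked. A match is a description of the letters and not a site of binding, and the lack of a match does not show that a site is absent.

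No muscle gene of the 34 differed between KO and WT handpads by the test, and the mean level of the set differed more among libraries of 1 genotype than between the genotypes. The libraries held 38052692 to 56037639 estimated counts. Of the 34 genes, 0 were called higher and 0 lower in KO (edgeR quasi-likelihood test over 16938 genes, false discovery rate, FDR, under 0.05), beside 0.348% of all tested genes called higher and 0.0827% called lower (0.431% in either direction). DESeq2, limma-voom and the likelihood ratio test of edgeR also called 0. Of all 16938 genes, DESeq2 called 212 higher and 87 lower, and limma-voom 41 higher and 4 lower. The likelihood ratio test called 185 higher and 75 lower. At an unadjusted p under 0.05, 1 muscle gene was higher and 0 were lower, beside 3.81% and 3.41% of all tested genes (7.22% in either direction). The log2 fold changes (KO minus WT) ran from -0.34 to 0.39 with a median of -0.05, against a median of -0.0045 for all tested genes, and 11 were positive and 23 negative. The 95% interval of the fit lay between -1 and 1 in 30 of the 34 genes, and a p that misses the threshold does not show that the levels were equal. Grhl3 itself measured 3.11, 2.86 and 2.95 CPM (counts scaled to library size) in KO libraries, against 14.3, 45.7 and 18.5 CPM in WT libraries (log2 fold change -3.14, SE 0.41, adjusted p = 0.0222, edgeR), and its groups did not overlap.

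**Figure D1:**
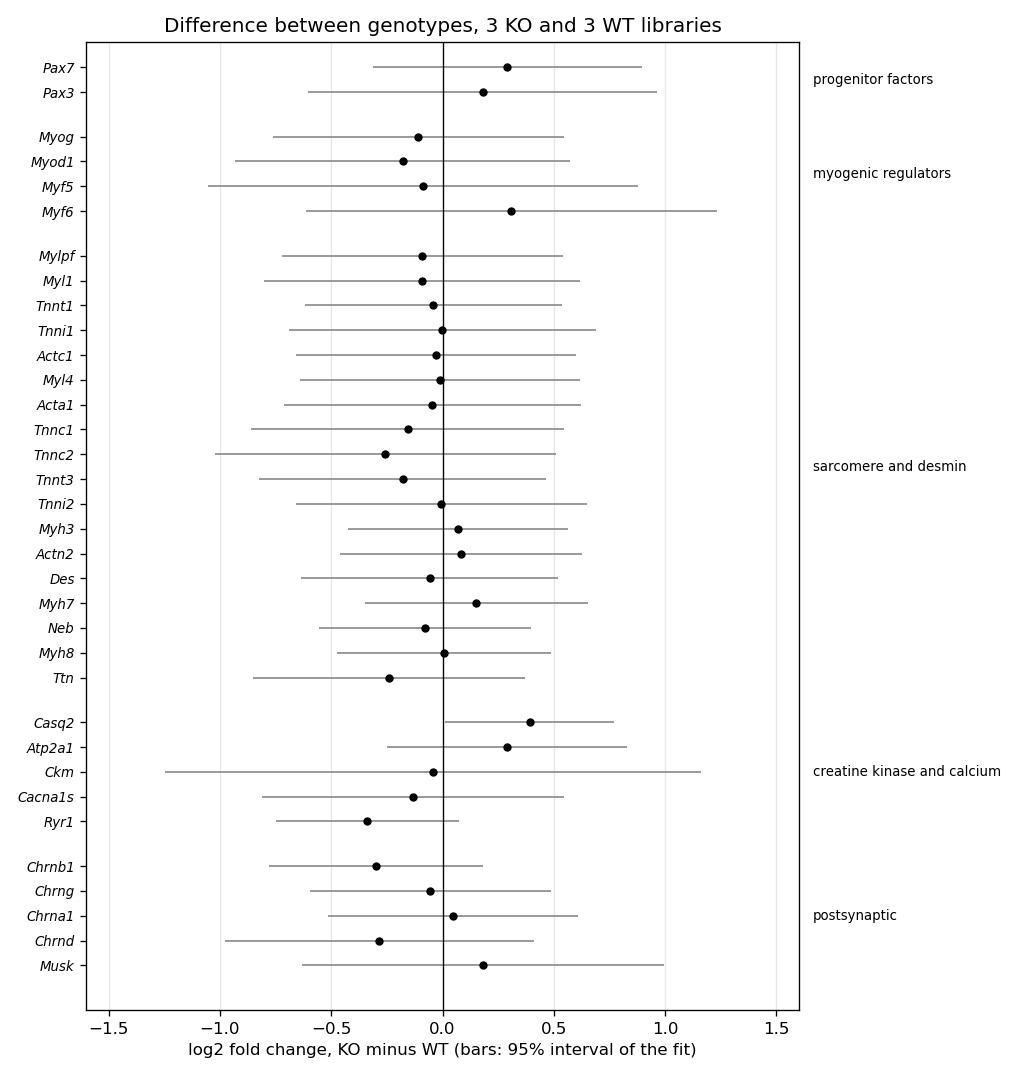
Log2 fold change of each muscle gene, KO minus WT (horizontal axis), with the 95% interval of the edgeR fit over 3 KO and 3 WT libraries, grouped by role. The points lie between -0.34 and 0.39, and the interval of Casq2 alone does not reach 0.

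Most of the 34 genes shared 1 pattern over the libraries. KO replicate 3 had 33 of the 34 genes above the gene's mean over the 6 libraries, and WT replicate 1 had 31. The other libraries had 6 (KO replicate 1), 4 (KO replicate 2), 7 (WT replicate 2) and 9 (WT replicate 3) above it. KO replicate 3 and WT replicate 1 were thus high and the other libraries low, with 1 high library in each genotype. Ckm lay 0.52 below its mean in KO replicate 3 (log2 CPM), and Pax3 by 0.60, Musk by 0.27 and Atp2a1 by 0.02 below theirs in WT replicate 1. The median deviation was -0.26, -0.23 and 0.43 (log2 CPM) in KO replicates 1 to 3, and 0.50, -0.21 and -0.11 in WT replicates 1 to 3. Averaged over the 34 genes, log2 CPM was 4.09 ± 0.37 in KO and 4.12 ± 0.34 in WT libraries (SD, n = 3 each), a difference of -0.03 that is smaller than either SD. The summed level was 1608, 1664 and 2309 TPM (transcript abundance scaled to length and library) in KO libraries, against 2334, 1565 and 1998 TPM in WT libraries. In bulk tissue, fewer muscle cells and less RNA per muscle cell cannot be told apart.

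**Figure D2:**
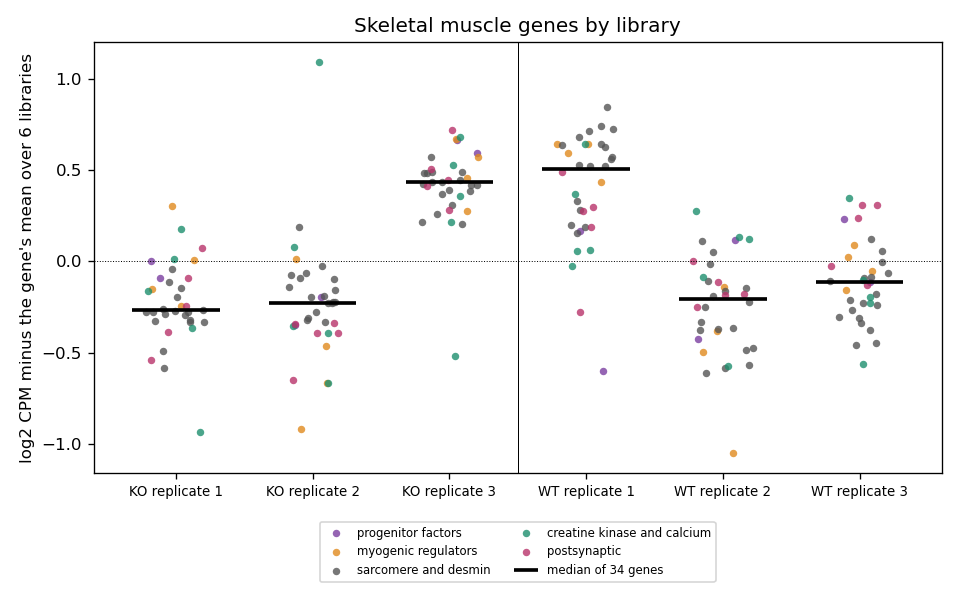
Each point is 1 of the 34 muscle genes in 1 library, as log2 CPM minus the mean of that gene over the 6 libraries, coloured by role, with a bar at the median of the 34 genes. Nearly all points of KO replicate 3 and WT replicate 1 lie above 0, and most points of the other 4 libraries lie below it.

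Because 1 library in each genotype was high, leaving a library out moved the set. Without WT replicate 1 the median log2 fold change was 0.24, and without KO replicate 3 it was -0.28, with 0 genes called in either fit. Without both it was -0.02, again with 0 called. At an unadjusted p under 0.05, 1 gene was higher and 0 lower without WT replicate 1, 0 higher and 4 lower without KO replicate 3, and 1 higher and 4 lower without both. A term for Y-linked expression gave a median of -0.52, with 0 genes called and 0 higher and 7 lower at an unadjusted p under 0.05. For these fits the share of all tested genes under that threshold was not counted, so these counts have no background beside them. WT replicates 2 and 3 had 150 and 173 TPM of summed Y-linked transcripts (Ddx3y, Eif2s3y, Kdm5d and Uty), while the KO libraries and WT replicate 1 had 1.15 to 1.96 TPM. The labels give no sex, so the sex of the embryos may differ between the groups, and outside WT replicate 1 it cannot be told apart from genotype. With the Y-linked term the genotype difference rests mainly on KO libraries against WT replicate 1, the WT library with high muscle genes.

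Other tissues of the handpad were read beside the muscle level. Summed markers of cartilage (Sox9, Col2a1, Acan, Matn1 and Col9a1) came to 765, 755 and 467 TPM in KO libraries, against 709, 1261 and 918 TPM in WT libraries, and the lowest library of each genotype was the one with high muscle genes. Epithelial markers (6 genes, among them Krt5 and Krt14) came to 1538 to 2164 TPM in KO libraries and 752 to 1492 TPM in WT libraries, lowest in WT replicate 1. Tendon markers spanned 223 to 358 TPM in KO libraries and 255 to 363 TPM in WT libraries. Factors of the proximal limb went opposite ways. Meis1 was at 17.4 to 19.7 CPM in KO libraries and 10.8 to 14.3 CPM in WT libraries (log2 fold change 0.55, adjusted p = 0.219, edgeR), and Meis2 at 53.2 to 57.2 CPM in KO libraries and 36.4 to 42.9 CPM in WT libraries (0.47, adjusted p = 0.128). Hoxa11 was at 56.8 to 67.9 CPM in KO libraries and 83.0 to 96.5 CPM in WT libraries (-0.50, adjusted p = 0.128), and Shox2 at 30.7 to 44.9 CPM in KO libraries and 50.2 to 57.5 CPM in WT libraries (-0.49, adjusted p = 0.361). None of these 4 overlapped between the genotypes in CPM and none passed the test. Of all tested genes, 6.77% did not overlap in the higher direction and 6.16% in the lower direction. Factors of the digit region (Hoxa13, Hoxd13 and Hoxd12) summed to 163 to 280 TPM in KO libraries and 228 to 239 TPM in WT libraries. The share of counts from 79 ribosomal protein genes was 7.21% to 7.78% in KO libraries and 5.64% to 8.94% in WT libraries, highest in WT replicate 1. The part of these differences in the muscle levels was not tested.

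Markers of smooth and of cardiac muscle were read apart from the skeletal muscle genes. Smooth muscle markers (Acta2, Myh11, Cnn1 and Tagln) came to 200, 119 and 171 TPM in KO libraries, against 96.2, 76.4 and 67.7 TPM in WT libraries. These sums did not overlap between the genotypes, while the summed skeletal muscle genes did. The sums themselves were not tested. Of the single genes, Tagln passed the test and was higher in KO (adjusted p = 0.032, edgeR). Acta2, Myh11 and Cnn1 did not pass it (adjusted p = 0.392, 0.0992 and 0.706, edgeR), and Acta2 and Cnn1 overlapped in CPM. The 5 cardiac markers summed to 8.41 to 14.2 TPM in KO libraries and 11.3 to 19.4 TPM in WT libraries. The natriuretic peptide Nppa was at 0 to 0.156 TPM in KO libraries and 0.105 to 0.329 TPM in WT libraries. Nppb, the related peptide, had 9, 14 and 15 counts in KO libraries, against 1, 1 and 0 counts in WT libraries, and Myl7, the atrial light chain, had 20, 6 and 10 counts in KO libraries, against 2, 5 and 2 counts in WT libraries. Nppb and Myl7 were higher in KO without overlap, in counts and in CPM, and with Nppa they were too low in count to be tested. For Myl7 the gap was narrow, at 6 counts in KO replicate 2 and 5 in WT replicate 2. Of all tested genes, 6.77% did not overlap in the higher direction. That share was not counted for untested genes, so these low counts have no background beside them and do not show a cardiac difference. Tnni3, cardiac troponin I, was at 4.52 to 6.47 TPM in KO libraries and 5.22 to 8.76 TPM in WT libraries. Myh6, the alpha cardiac myosin, was at 0.875 to 6.34 TPM in KO libraries and 3.50 to 13.6 TPM in WT libraries. It shares 22.5% of the 31-base words of Myh7 transcripts, so reads of this pair may be divided between them.

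Progenitor factors were rare. Pax7, the factor of fetal muscle progenitors and later satellite cells, measured 1.03, 0.898 and 1.56 TPM in KO libraries, against 1.03, 0.967 and 1.06 TPM in WT libraries. The groups overlapped, with KO replicate 3 highest (log2 fold change 0.29, SE 0.26, adjusted p = 0.944, edgeR). Pax3, the factor of migrating progenitors, measured 0.318, 0.275 and 0.481 TPM in KO libraries, against 0.204, 0.421 and 0.450 TPM in WT libraries. It rested on 39 to 88 counts in KO libraries and 26 to 57 in WT libraries.

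The myogenic regulators stood in the order Myog, Myod1, Myf5 and Myf6 by mean TPM. Myog, which drives differentiation, measured 38.6, 30.3 and 54.6 TPM in KO libraries, against 55.5, 36.5 and 45.4 TPM in WT libraries. Each genotype spanned nearly the same range (log2 fold change -0.11, SE 0.29, adjusted p = 0.992, edgeR). Myod1, a commitment factor, measured 10.1, 7.37 and 16.6 TPM in KO libraries, against 16.2, 12.1 and 11.8 TPM in WT libraries. Myf5, the earliest of the regulators in the limb, averaged 1.44 ± 0.70 TPM in KO and 1.59 ± 0.42 TPM in WT libraries (SD, n = 3 each). Its range overlapped that of Myf6 in KO libraries and lay above it in WT libraries. Myf6, a late regulator, measured 0.794, 0.629 and 0.724 TPM in KO libraries, against 0.746, 0.328 and 0.718 TPM in WT libraries. Its log2 fold change of 0.31 had a wide interval, -0.62 to 1.23, at 12 to 35 counts per library (adjusted p = 0.974, edgeR). The share of Pax7 in the summed TPM of Pax7 and Myog, which does not move with the amount of muscle alone, was 2.60%, 2.88% and 2.77% in KO libraries, against 1.82%, 2.58% and 2.28% in WT libraries. These shares did not overlap, by a gap smaller than the range within either genotype, and were not tested.

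**Figure D3:**
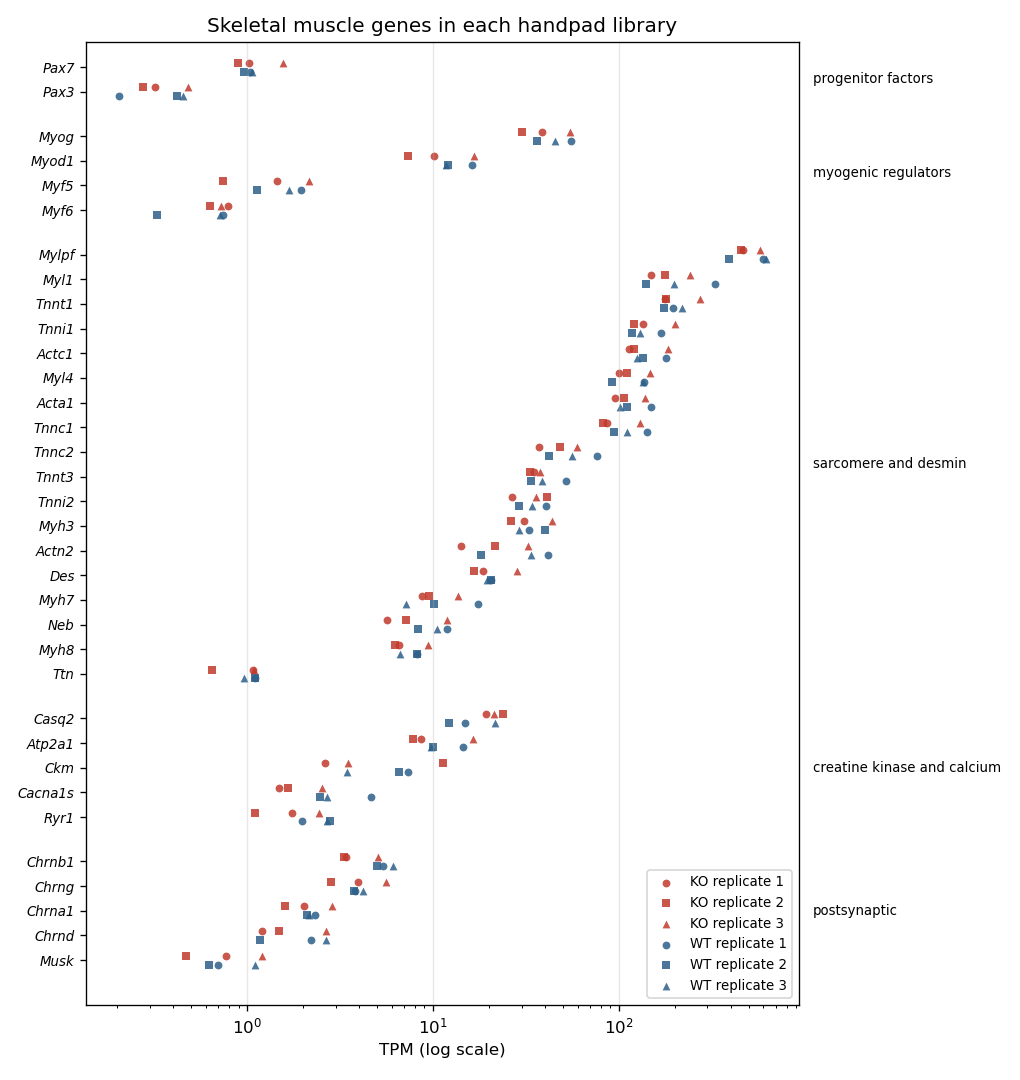
TPM of each muscle gene in each of the 3 KO and 3 WT libraries (log axis), grouped by role and ordered by mean TPM within a role. Levels span from about 0.2 TPM for Pax3 to 623 TPM for Mylpf, and KO and WT points intermingle.

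Sarcomere genes held nearly all of the summed TPM of the 34 genes, with 1510, 1568 and 2169 TPM in KO libraries, against 2201, 1467 and 1880 TPM in WT libraries. This share depends on which genes were listed. Of the 18, 0 were called, 4 had positive and 14 negative fold changes, and the median was -0.04. Mylpf, the regulatory light chain of fast fibres, measured 468, 457 and 578 TPM in KO libraries, against 594, 390 and 623 TPM in WT libraries. Its groups overlapped over most of their range (log2 fold change -0.09, SE 0.28, adjusted p = 0.994, edgeR). Next in mean level stood Myl1, an essential light chain of fast fibres, and Tnnt1, slow troponin T, at 206 and 204 TPM over the 6 libraries, followed by Tnni1, Actc1, Myl4, Acta1 and Tnnc1 between 108 and 146 TPM. The ranges of neighbours from Myl1 to Tnnc1 overlapped. Ttn, the giant spring of the sarcomere, had the smallest p-value of the sarcomere genes and measured 34.8, 43.2 and 71.1 CPM in KO libraries, against 75.0, 46.7 and 54.5 CPM in WT libraries (log2 fold change -0.24, SE 0.27, adjusted p = 0.961, edgeR). KO replicate 3 lay within the WT range and the other KO libraries below it.

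Shares of paired genes describe the fibre type and stage of the sarcomere, and they were not tested. Myh3, embryonic myosin, made up 66.9%, 62.5% and 65.7% of the summed TPM of Myh3, Myh8 (neonatal myosin) and Myh7 (slow and beta cardiac myosin) in KO libraries, against 56.1%, 68.6% and 67.7% in WT libraries. WT replicate 1 was the low library, and its Myh7 level included 14.1 TPM assigned to a transcript with a retained intron (4.15 to 8.82 TPM in the other libraries). That transcript took 57.5% to 80.5% of Myh7 over all libraries, so the share depends on it in each of them. The adult fast myosins Myh1, Myh2 and Myh4 averaged 0.821, 0.109 and 0.0749 TPM over all libraries, far below Myh3 at 33.9 TPM. Tnni1, slow troponin I, made up 83.5%, 74.6% and 84.9% of the slow and fast pair (Tnni1 and Tnni2) in KO libraries, against 80.7%, 80.1% and 79.2% in WT libraries. The KO libraries lay on both sides of the WT libraries. A transcript with a retained intron took 42.7% to 56.9% of Tnni2 over all libraries. Slow troponin C (Tnnc1) made up 67.2 ± 3.63% of its pair with Tnnc2 in KO and 66.7 ± 2.03% in WT libraries, and slow troponin T (Tnnt1) 85.2 ± 2.34% and 82.7 ± 3.06% of its pair with Tnnt3 (SD, n = 3 each). Actc1, the cardiac actin that fetal skeletal muscle also makes, held 54.9 ± 2.11% of its pair with Acta1, the adult skeletal actin, in KO and 55.0 ± 0.22% in WT libraries (SD, n = 3 each). These 5 sets overlapped between the genotypes.

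**Figure D4:**
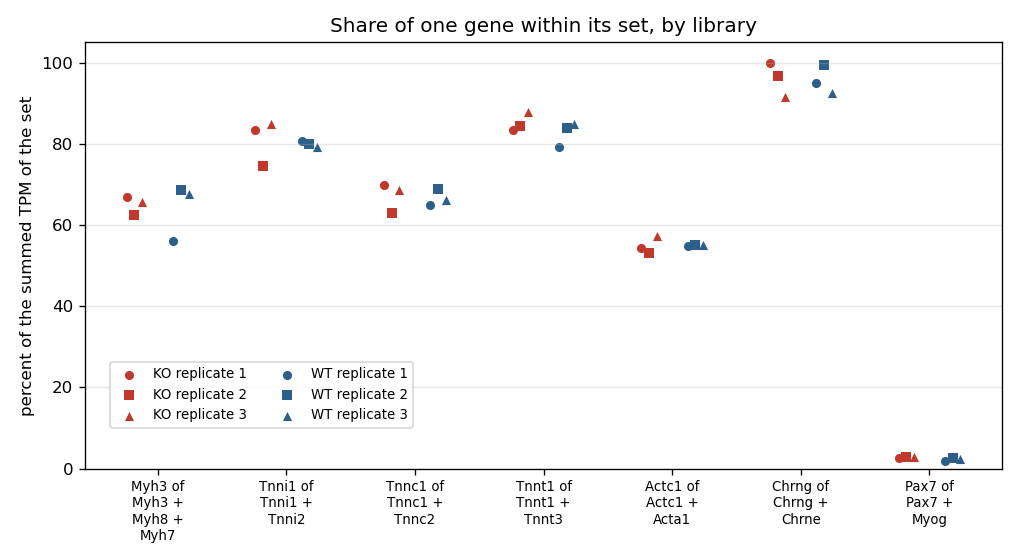
Percent of the summed TPM of a set that comes from its first gene, in the 3 KO and 3 WT libraries. KO and WT points overlap in 6 of the 7 sets, and the set of Pax7 and Myog lies at 2.60% to 2.88% in KO and 1.82% to 2.58% in WT libraries.

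Transcript shares were less even than gene sums. The transcript Myl1-201 took 36.3%, 38.3% and 35.9% of Myl1 in KO libraries, against 2.07%, 34.8% and 36.8% in WT libraries. The transcript Myl1-207 was estimated at 15.5, 14.4 and 7.28 TPM in KO libraries, against 126, 14.9 and 4.16 TPM in WT libraries. WT replicate 1 stood apart from the other 5 libraries in both. It also stood apart in transcripts of other members. Myh3-202 took 11.2% of Myh3 in WT replicate 1 and 53.7% to 80.2% in the other libraries. Des-202, with a retained intron, took 0.665% of Des in WT replicate 1 and 22.3% to 33.4% in the others. Not every gene showed this, as Myh8-201 took 98.3% to 99.6% of Myh8 in all libraries. The reason was not tested. Myl1 also shares 299 of its 2067 words of 31 bases with the pseudogene Mylf-ps. For Tnnt3, fast troponin T, which is known for its many splice forms, 1 coding transcript took 19.6%, 46.2% and 51.4% in KO libraries, against 0%, 45.4% and 38.5% in WT libraries, so the estimated division between its forms varied within both genotypes. Actn2, the alpha-actinin of the Z disc, averaged 22.8 ± 9.17 TPM in KO and 31.3 ± 12.0 TPM in WT libraries (SD, n = 3 each), while its counts gave a log2 fold change of 0.08. The transcript Actn2-205, annotated as a processed transcript, held 0.154, 7.68 and 9.01 TPM in KO libraries, against 24.4, 0.745 and 18.5 TPM in WT libraries. The test used the counts.

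Among genes of calcium handling and creatine kinase, Casq2 was the member with the lowest p-value. It encodes calsequestrin 2, which stores calcium in the sarcoplasmic reticulum of cardiac and slow muscle. Casq2 (ENSMUSG00000027861.13, chromosome 3, 102086415 to 102146514, mm10, plus strand) measured 27.9, 26.1 and 31.7 CPM in KO libraries, against 25.7, 16.6 and 23.1 CPM in WT libraries. The KO libraries lay above the WT libraries by a narrow gap, and on the TPM scale the groups overlapped, at 19.3, 24.0 and 21.2 TPM in KO libraries and 14.9, 12.2 and 21.5 TPM in WT libraries. Its log2 fold change was 0.39 (SE 0.17, adjusted p = 0.676, edgeR), with an unadjusted p of 0.0447. It was 1 of the 34 genes whose groups did not overlap in CPM in the higher direction, beside 6.77% of all tested genes, and 0 did not overlap in the lower direction, beside 6.16% (12.9% in either direction). Of the 34 genes, Casq2 alone is in the authors' deposited table (log2 fold change 0.39, likelihood ratio p of 0.0461, FDR of 0.764). That table holds only genes with a p of about 0.05 or less, from the same libraries. Being listed there thus restates the unadjusted p of Casq2 and is not separate evidence. The adjusted p ran from 0.14 to 1 over the alternative fits, and the fold change was 0.14 with the Y-linked term and 0.23 without WT replicate 2. The annotation places 2 further genes, 4632404M16Rik and Gm43244, over Casq2 on the same strand, so reads of these may be divided with it.

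The other genes of the role did not pass the test. Ryr1, the calcium release channel, measured 15.3, 15.1 and 23.0 CPM in KO libraries, against 20.6, 21.7 and 25.2 CPM in WT libraries (log2 fold change -0.34, SE 0.18, adjusted p = 0.791, edgeR). KO replicate 3 lay within the WT range and the other KO libraries below it. Without KO replicate 3 and WT replicate 1 together its adjusted p was 0.101. Cacna1s, the voltage sensor that opens this channel, measured 5.20, 3.66 and 8.41 CPM in KO libraries, against 7.53, 6.34 and 5.09 CPM in WT libraries. Atp2a1, the calcium pump of fast fibres, had 876, 656 and 1554 counts in KO libraries, against 657, 827 and 594 counts in WT libraries. KO replicate 3 was high (log2 fold change 0.29, SE 0.24, adjusted p = 0.928, edgeR). Ckm, muscle creatine kinase, did not follow the pattern of the other genes: it measured 2.62, 11.3 and 3.47 TPM in KO libraries, against 7.31, 6.59 and 3.46 TPM in WT libraries. KO replicate 2 was its highest library, at 297 counts, and its interval was the widest of the 34, -1.25 to 1.16 on the log2 scale.

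Postsynaptic genes were present at low levels. Chrnb1, the beta subunit of the muscle acetylcholine receptor, measured 3.43, 3.33 and 5.08 TPM in KO libraries, against 5.40, 4.98 and 6.09 TPM in WT libraries. KO replicate 3 just reached the WT range and the other KO libraries lay below it (log2 fold change -0.30, SE 0.21, adjusted p = 0.896, edgeR). Chrng, the fetal gamma subunit, measured 3.96, 2.84 and 5.61 TPM in KO libraries, against 3.79, 3.76 and 4.22 TPM in WT libraries. The gamma subunit made up 91.5% to 100% of its sum with Chrne, the adult epsilon subunit, in KO libraries and 92.6% to 99.5% in WT libraries. Chrne rested on 0, 2 and 8 counts in KO libraries and 3, 1 and 1 counts in WT libraries and was not tested. Chrna1, the alpha subunit, measured 2.03, 1.61 and 2.87 TPM in KO libraries, against 2.33, 2.11 and 2.16 TPM in WT libraries. Chrnd, the delta subunit, averaged 1.79 ± 0.78 TPM in KO and 2.01 ± 0.76 TPM in WT libraries (SD, n = 3 each). Musk, the kinase that organises the junction, averaged 0.812 ± 0.37 TPM in KO and 0.806 ± 0.26 TPM in WT libraries (SD, n = 3 each), and 0 of the 5 genes were called.

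A wider list of 80 other muscle genes gave the same count. Of 77 tested, 0 were called higher and 0 lower (edgeR quasi-likelihood test), and 1 was higher and 2 lower at an unadjusted p under 0.05, beside 3.81% and 3.41% of all tested genes. The genes of the list given with a fold change had the smallest p in their role, and none of them passed this test. DESeq2 and limma-voom called 0, and the likelihood ratio test called 1, Mybpc2. That last test called 185 of all 16938 genes higher and 75 lower. The median log2 fold change was -0.03, with 37 positive and 40 negative. Groups did not overlap in CPM for 2 genes in the higher direction (Mybpc2 and Xirp1) and for 4 in the lower direction (Mef2c, Mef2d, Cacnb1 and Jph1), beside 6.77% and 6.16% of all tested genes, which is more than the share of this list in either direction. Mybpc2, fast myosin binding protein C, had 18, 17 and 22 counts in KO libraries, against 2, 5 and 0 counts in WT libraries, so its groups did not overlap at a low count, where the fitted fold change depends on the prior count (log2 fold change 2.73, SE 0.63, adjusted p = 0.196, edgeR). The levels were 0.365, 0.358 and 0.400 CPM in KO libraries, with KO replicate 3 highest by a small margin. At such low counts the library pattern of the other muscle genes can be neither seen nor excluded in it. Mef2c, a partner of the myogenic regulators that also acts in cartilage and endothelium, measured 98.8, 94.5 and 87.9 CPM in KO libraries, against 124, 101 and 116 CPM in WT libraries (log2 fold change -0.28, SE 0.10, adjusted p = 0.533, edgeR). Its KO libraries all lay below its WT libraries. The authors' deposited table, limited by p as described for Casq2, lists Mef2c with a log2 fold change of -0.28 and an FDR of 0.546. Jph1, a junctophilin that ties the cell membrane to the calcium store, measured 6.88, 6.40 and 6.08 CPM in KO libraries, against 8.14, 7.92 and 8.68 CPM in WT libraries (log2 fold change -0.35, SE 0.13, adjusted p = 0.568, edgeR). Among the other roles the smallest p-values belonged to Heyl, a Notch target (log2 fold change 0.38, adjusted p = 0.693, edgeR), and Dmd, dystrophin (log2 fold change -0.18, adjusted p = 0.947, edgeR).

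The list shared the library pattern of the 34 genes. KO replicate 3 was the highest library for 34 of the 77 genes and WT replicate 1 for 33, leaving 10 genes to the other 4 libraries. The median deviation was -0.15, -0.18 and 0.38 (log2 CPM) in KO replicates 1 to 3, and 0.36, -0.25 and -0.05 in WT replicates 1 to 3. Cdh15, the cadherin of myoblasts, measured 12.5, 10.9 and 23.3 CPM in KO libraries, against 19.8, 12.5 and 13.3 CPM in WT libraries. Mymk, which is needed for myoblast fusion, measured 5.42, 5.54 and 10.9 CPM in KO libraries, against 8.43, 6.20 and 5.54 CPM in WT libraries. Both were high in KO replicate 3 and WT replicate 1 and were chosen after their values were seen. With the libraries scaled on the 34 muscle genes, each gene was compared relative to muscle as a whole. In that fit 0 of the 34 were called and 0 had an unadjusted p under 0.05. Because the same 34 genes set the scale, a difference shared by them was largely removed before the test. Their lack of calls in that fit therefore cannot show whether muscle as a whole differed. Mybpc2 was the 1 gene of the wider list called in that fit, beside 124 higher and 54 lower of all 16938 genes.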

How the data were processed

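Polyadenylated RNA of 3 KO and 3 WT handpads was sequenced with a stranded kit, per the labels' protocols. FastQC and kallisto (versions not given in the sources used here) and build mm10 are named in the submitters' processing notes. The deposited estimated counts and the deposited TPM are given per transcript, per the file headers, and neither is normalized between libraries. The deposited effective lengths in bases were used in 1 alternative. The authors' deposited table gives log2 fold changes, a likelihood ratio score and p-values for 941 genes, per the file headers.

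Of 111462 transcripts, 110203 matched GENCODE M21 by unversioned identifier, and the rest held 0.504% to 0.566% of a library's counts. Counts were summed per gene and rounded, and TPM summed. KO was compared with WT by edgeR 4.0.16 in R 4.3.3 (TMM scaling, filterByExpr with a minimum count of 10, genotype as the term, Benjamini-Hochberg adjustment over 16938 genes, FDR 0.05). Levels between genes are in TPM. DESeq2 1.42.0, limma 3.58.1 and other scalings, filters and library sets were alternatives. Scaling on the muscle genes and the removal of a pair of libraries were added after the data were seen. The fit was tested on simulated data. The members and lists were chosen with earlier results of these data known. Genes named by rule are, per role, the members with the highest mean TPM and the smallest p, and in the wider list those with the smallest p. Other members and other genes of the wider list were named outside this rule. Of these, Cdh15 and Mymk were chosen after their values were seen. Reads carried no molecular identifiers, so counts are not counts of molecules. It was not stated whether counting used the strand, and several of the genes, Myh7 among them, overlap an annotated gene on the opposite strand.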

Additional observations from a re-analysis of the deposited data

How the results depend on the processing

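In the 19 alternative fits, 0 of the 645 values for the 34 genes were called, so no call was gained or lost, and 107 took the opposite sign of values that had themselves not passed the test. The wider list had 0 genes called higher, but 1 with the likelihood ratio test of edgeR and 1 with scaling on the muscle genes, which was added after the data were seen and put the median of all genes at 0.08. The median log2 fold change of the muscle genes was -0.52 with the Y-linked term and that of the wider list -0.335, where KO is compared mainly with WT replicate 1. Leaving out 1 library gave medians of -0.28 (without KO replicate 3) to 0.24 (without WT replicate 1) for the muscle genes and -0.22 to 0.19 for the wider list, with 0 called. With the replicate number as a block, 0 muscle genes were called and the median was -0.02. Same-numbered libraries did not deviate together (correlations of -0.23, -0.09 and -0.16). With 3 libraries per genotype this cannot exclude a pairing, and the labels do not say what the numbers mean. Chrne had too few counts to be tested. For the 34 genes, the intervals give the differences that the fit leaves possible, and they are not limits of detection. A gene may differ and still not be called.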
